A study of Mus musculus with 2 samples.

Results

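The genes described here encode 10 proteins that the visceral endoderm releases: Ttr, Rbp4, Ambp, F10, Afp, Apoa1, Apob, Apoe, Apom and Spink3. They are 10 of the 25851 genes with a detected probe, and every probe carrying one of these names in the array files was taken, which gave 11 probes (Apob had 2). The set was chosen by the level and detection of its genes on these arrays and by their difference between them, so the differences below describe the chosen genes and test nothing.

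The 2 groups were EpiSC and ELA-EpiSC, both made from E14Tg2A, a feeder-independent mouse embryonic stem (ES) cell line of the 129/Ola strain. EpiSC, epiblast stem cells, came from ES cells placed directly in a chemically defined medium that held FGF2 at 12 ng/mL with Activin A at 20 ng/mL. ELA-EpiSC received the same factors at the same doses but started from Epiblast-Like Aggregates (ELA), the clusters that ES cells form in suspension after serum and LIF are withdrawn. Each group was 1 one-colour Agilent array hybridised with RNA pooled from 3 independent sets of experiments, so no difference between the groups has a replicate and no p-value is given. The labels conflict on 1 point: in their source fields, the library titled EpiSC is called an Argonaute precipitate and the library titled ELA-EpiSC total RNA, both of undifferentiated ES cells. The titles were followed here, and every direction below rests on them.

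The visceral endoderm is the epithelium that surrounds the epiblast of the early mouse embryo. Before the liver forms, it does part of the liver's work: it takes up maternal nutrients through apical receptors and secretes carrier proteins, lipoproteins and protease inhibitors. Hepatocytes use many of the same genes later, under transcription factors of the HNF4, HNF1, FOXA and GATA families. 

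The promoters of 8 of the 10 genes were found in the RefSeq promoter table of assembly GRCm38.p6, in 11 windows of 250 bases before a transcription start. Ttr and Spink3, both lower in ELA-EpiSC, had no entry. Some of the windows are shown because the genes differed unequally between the cultures. The first 4 below belong to genes that were lower in ELA-EpiSC by 2 or more on the log2 scale, and Afp and Apob to genes that were not lower. Capitals mark each match, on either strand, to TGTTTNC (the core of the FOXA motif), GTTAAT (a part of the HNF1 motif) or GGTCNAANG (a direct-repeat core bound by HNF4).
Ambp (chr4:63154173-63154422, minus strand): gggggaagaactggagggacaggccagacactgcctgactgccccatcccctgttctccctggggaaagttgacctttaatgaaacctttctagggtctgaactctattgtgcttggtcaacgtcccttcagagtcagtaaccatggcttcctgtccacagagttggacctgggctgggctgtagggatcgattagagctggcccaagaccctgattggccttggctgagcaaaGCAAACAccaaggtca
Apoa1 (chr9:46228380-46228629, plus strand): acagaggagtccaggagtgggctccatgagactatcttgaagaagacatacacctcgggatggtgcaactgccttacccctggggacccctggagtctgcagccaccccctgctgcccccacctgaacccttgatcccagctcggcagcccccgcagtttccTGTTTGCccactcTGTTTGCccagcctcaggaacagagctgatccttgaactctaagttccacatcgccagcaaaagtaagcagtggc
Rbp4 (chr19:38125322-38125571, minus strand): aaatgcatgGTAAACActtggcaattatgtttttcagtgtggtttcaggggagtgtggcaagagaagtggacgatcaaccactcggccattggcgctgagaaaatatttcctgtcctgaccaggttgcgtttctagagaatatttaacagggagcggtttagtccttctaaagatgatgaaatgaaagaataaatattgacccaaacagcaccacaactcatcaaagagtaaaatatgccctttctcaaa
F10 (chr8:13037058-13037307, plus strand): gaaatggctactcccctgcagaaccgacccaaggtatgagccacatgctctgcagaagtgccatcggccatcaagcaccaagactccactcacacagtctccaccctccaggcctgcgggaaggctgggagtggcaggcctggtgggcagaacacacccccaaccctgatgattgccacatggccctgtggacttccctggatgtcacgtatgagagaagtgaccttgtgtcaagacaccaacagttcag
Afp (chr5:90490464-90490713, plus strand): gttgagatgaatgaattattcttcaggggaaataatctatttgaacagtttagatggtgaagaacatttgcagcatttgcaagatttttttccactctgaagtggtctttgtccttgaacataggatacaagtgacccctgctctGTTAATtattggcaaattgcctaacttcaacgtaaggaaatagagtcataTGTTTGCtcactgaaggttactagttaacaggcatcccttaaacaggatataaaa
Apob (chr12:7977427-7977676, plus strand): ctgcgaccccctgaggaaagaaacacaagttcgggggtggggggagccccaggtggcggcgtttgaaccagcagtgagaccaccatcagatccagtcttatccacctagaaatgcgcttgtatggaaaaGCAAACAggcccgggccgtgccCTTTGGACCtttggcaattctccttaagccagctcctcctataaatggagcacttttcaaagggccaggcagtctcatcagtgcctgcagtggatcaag

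TGTTTNC was found in 6 of the 11 windows and in 17.8% of all 32851 promoters of the same length. It lay in the first promoter of Rbp4 and in those of Ambp and Apoa1 (at 2 places), and also in those of Afp, Apob and Apom, while the F10 promoter held no match to any of the 3. GTTAAT was found in 2 windows, of Afp and Apoe, and in 6.43% of all promoters. GGTCNAANG was found in 1 window, that of Apob, and in 1.75% of all promoters. The second Rbp4 window, which is not shown, held no match to any of the 3. Among the genes with a promoter here, the matches thus stood both in genes that were lower in ELA-EpiSC and in genes that were not. They are matches of letters and do not show that a factor bound there.

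All 10 genes were detected in EpiSC, and 7 of them also in ELA-EpiSC. Detected means that at least 0.5 of a probe's spots were marked well above background by the scanner software. Ttr, F10 and Apoa1 were detected on EpiSC only, as were 4.27% of all genes (1103). Differences are log2 ELA-EpiSC minus EpiSC of normalised signal, relative to the bulk of genes. By this measure 8 members were lower in ELA-EpiSC and 2 were higher, while all genes were split nearly evenly about 0 (median -0.01). Apom, among the lower, and Afp, among the higher, changed sign in 1 other way of processing each. A difference of 1 or more, a change of the normalised signal by a factor of at least 2, was reached downwards by 6 members and upwards by 0. A constant of 50 was added to every signal before normalisation, which narrows the differences of dim genes. The background shares were 3.34% of all genes lower and 3.39% higher. Of the 7 members with a mean log2 signal of at least 7.5, 5 were lower by 1 or more, beside 4.46% of the 16649 genes at that level (4.54% were higher). Ttr, F10 and Ambp reached that mean only through their EpiSC signal (6.06, 6.16 and 6.27 in ELA-EpiSC), so for them the minimum itself required a difference. A difference of 2.5 or more downwards was reached by 5 members and by 0.433% of all genes (112). These shares are given as background, since the same difference had chosen the members. The median difference was -2.62 over the members and -0.01 over all genes.

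**Figure D1:**
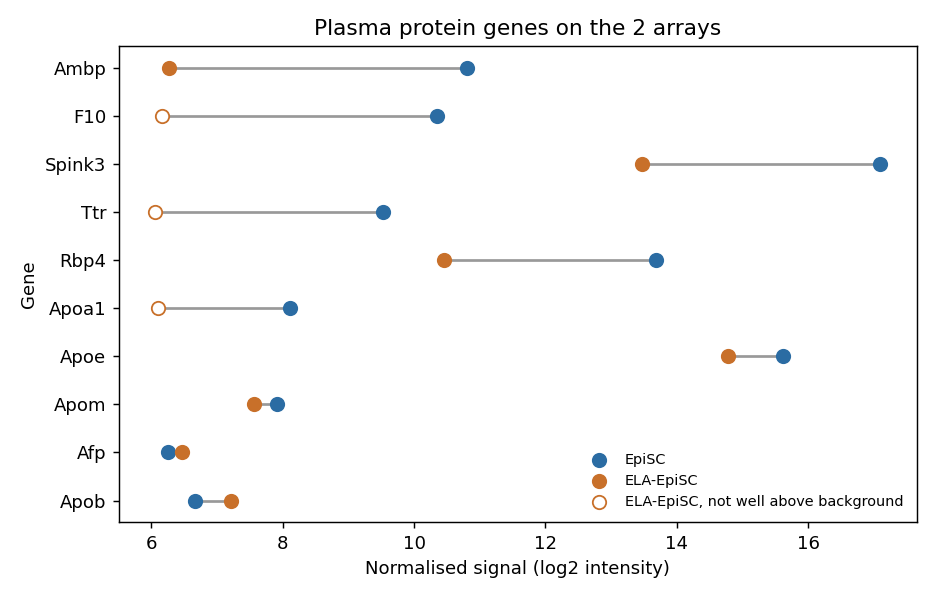
Normalised signal (log2 intensity, horizontal axis) of each of the 10 genes (vertical axis) in EpiSC (blue) and ELA-EpiSC (orange), 1 array each, with open circles where the probe was not well above background. Ambp, F10, Spink3, Ttr and Rbp4 have the longest lines, all towards lower signal in ELA-EpiSC, while the circles of Apom, Afp and Apob lie close together. Signals of different genes come from different probes and are not comparable.

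**Figure D2:**
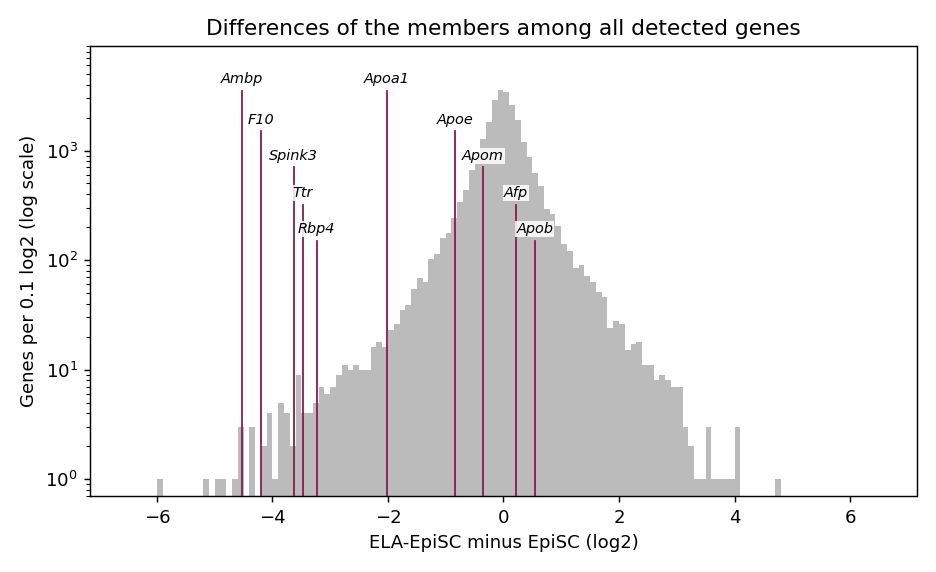
Number of genes (vertical axis, log scale) in bins of 0.1 of the difference ELA-EpiSC minus EpiSC (log2, horizontal axis) over all 25851 genes, with a red line at each of the 10 members. Lines of 5 members stand in the sparse left tail below -2.5, and those of Apoe, Apom, Afp and Apob stand within 1 of 0.

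Ttr and Rbp4 encode the partners that carry retinol in blood: RBP4 holds the vitamin, and transthyretin binds the RBP4 complex and also carries thyroid hormone. The Ttr spot had a raw mean brightness of 645 over a local background of 29 in EpiSC, and of 32.8 over 24 in ELA-EpiSC, where it was not well above background. Its normalised log2 signal was 9.53 and 6.06. Since the ELA-EpiSC value is only an upper limit, Ttr was at least 10.7-fold higher in EpiSC in the reported normalisation. Its difference was smaller, -2.93, when spike-in probes were set equal. The Rbp4 spot was bright on both arrays, with raw signals of 12206 and 1529. The log2 signals, 13.68 against 10.45, were 9.39-fold apart (-3.23). Rbp4 was thus well above background in both cultures, and Ttr in EpiSC alone. The probes lie at chr18:20828519-20828577 (Ttr) and chr19:38191120-38191179 (Rbp4) in mm9.

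Ambp encodes a precursor that is split into alpha-1-microglobulin, which binds heme and other small ligands, and bikunin, a protease inhibitor. Its log2 signals of 10.80 in EpiSC and 6.27 in ELA-EpiSC differ by -4.53, or 23.1-fold. It cannot be ranked against Ttr, F10 and Apoa1, whose folds are lower limits. The raw signals were 1578 over a background of 27, and 46.3 over 26. The ELA-EpiSC spot was well above background but close to the lowest detected signal of that array (6.11), and the difference reached -6.88 with the processed signal. In the genome its probe spans chr4:62804386-62804711 (mm9), 326 bases from end to end, which is not a measure of the length of the probe.

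F10 encodes coagulation factor X, the protease that activates prothrombin. Its raw signal was 1136 over a background of 24 in EpiSC and 40.8 over 27 in ELA-EpiSC, where it was not well above background. With log2 signals of 10.35 and 6.16, F10 was at least 18.3-fold higher in EpiSC in the reported normalisation. Its difference was smaller, -3.66, when spike-in probes were set equal. Spink3, whose RefSeq symbol is now Spink1, encodes a secreted trypsin inhibitor. Its raw signal was 142784 in EpiSC and 12184 in ELA-EpiSC, with no spot saturated. The log2 signals of 17.10 and 13.46 differ by -3.63, or 12.4-fold, so that Spink3 was lower but still far above background in ELA-EpiSC. The F10 probe lies at chr8:13055774-13055833 and the Spink3 probe at chr18:43887802-43887858 (mm9).

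The 4 apolipoproteins differed unequally. APOA1 is the main protein of high-density lipoprotein, APOB the backbone of very-low-density and low-density particles, APOE a ligand for receptors that clear lipoproteins, and APOM a lipocalin that carries sphingosine 1-phosphate. Apoa1 had 10 spots of 1 probe, with raw signals of 201 to 253 in EpiSC and 32.6 to 44.4 in ELA-EpiSC. All 10 spots were well above background in EpiSC. In ELA-EpiSC 1 of 10 was, and that spot was marked as an outlier by the scanner software and left out. The log2 signal was 8.12 ± 0.09 (SD over spots) in EpiSC and 6.10 ± 0.08 in ELA-EpiSC, and 9 of 9 spot pairs were lower in ELA-EpiSC. Apoa1 was thus at least 4.02-fold higher in EpiSC in the reported normalisation. Its difference was smaller, -1.48, when spike-in probes were set equal.

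Apoe had raw signals of 44552 to 59593 over its 10 EpiSC spots and of 24385 to 36438 over its 10 ELA-EpiSC spots, and the ranges do not overlap. The log2 signal was 15.62 ± 0.15 and 14.78 ± 0.24 (SD over spots). The difference of -0.83, or 1.78-fold, had an SD of 0.11 over spot pairs, and all 10 pairs were lower in ELA-EpiSC. It was larger than spot noise, but spots share 1 RNA pool and 1 labelling, so it says nothing about the spread between cultures. Its size lies under 1, though it passed 1 in 2 of 14 other ways of processing and shrank to -0.30 when spike-in probes were set equal.

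Apob was higher in ELA-EpiSC by both of its probes. The brighter one had raw signals of 66.5 and 122 and log2 signals of 6.66 and 7.21, a difference of 0.55 or 1.46-fold in normalised signal. Without the added constant of 50 the difference was 0.93. The other had raw signals of 50.0 and 105 and a difference of 0.67. Apom had raw signals of 192 and 171, log2 signals of 7.91 and 7.56 and a difference of -0.35, which turned to 0.19 with spike-in scaling. Apom and each Apob probe had 1 spot, so their own spot noise was not measured.

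Afp, alpha-fetoprotein, is the classical serum protein of visceral endoderm and fetal liver and stands beside Alb in the genome. Its 10 spots read 40.3 to 47.0 in EpiSC and 50.1 to 68.2 in ELA-EpiSC, dim on both arrays, with 9 and 10 spots well above background. The log2 signal was 6.26 ± 0.05 and 6.47 ± 0.08 (SD over spots), a difference of 0.21 with an SD of 0.07 over spot pairs, higher in ELA-EpiSC in 10 of 10 pairs, but of the opposite sign (-0.08) when the arrays were scaled to their 75th percentile after background correction. The Afp signal was close to the detection limit in both cultures, and it did not share the differences of Ttr, Rbp4, Ambp, F10 and Spink3.

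**Figure D3:**
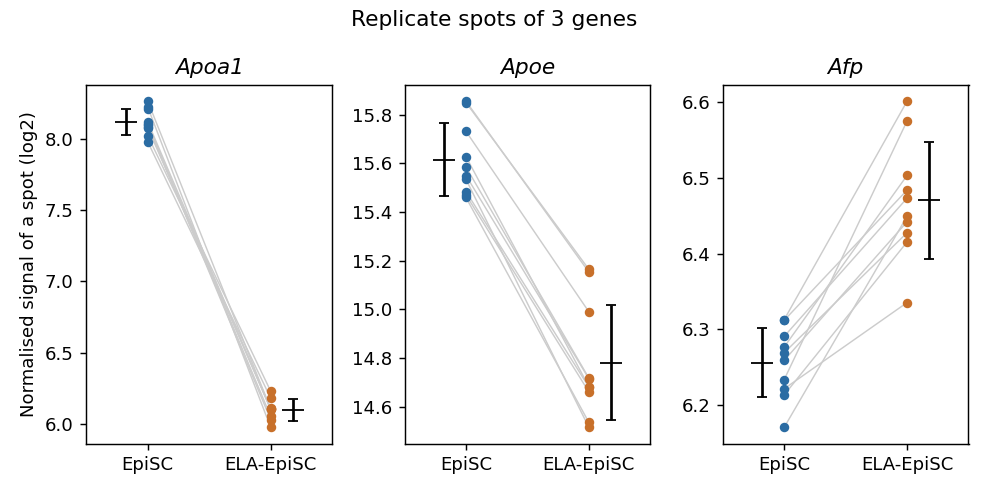
Normalised signal (log2, vertical axis, a scale of its own in each panel) of the replicate spots of the Apoa1, Apoe and Afp probes in EpiSC (blue) and ELA-EpiSC (orange). Grey lines join spots at the same place on both arrays, and black marks give the mean and SD over spots. Apoa1 and Apoe are lower on ELA-EpiSC in all joined spots and Afp is higher in all 10, over a much narrower range.

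For background, the other genes of the same functions were counted from lists. Among 51 other plasma proteins, 50 were on the array and 43 were detected. Of those, 6 were lower in ELA-EpiSC by 1 or more, 3 were higher and 34 were within 1, with a median of -0.07. Only 16 of the 43 had a mean log2 signal of at least 7.5, and of these 5 were lower and 3 higher by 1 or more. The lower genes included Proc, which encodes the anticoagulant protein C (10.23 to 7.41, difference -2.81), and Apoc2, the activator of lipoprotein lipase (8.95 to 6.74, -2.21). The higher genes included Ahsg, which encodes fetuin-A (6.65 to 8.54, 1.89), and Serpinf1 (8.69 to 10.45, 1.77). Alb, the major carrier of plasma, was not detected on either array, nor were Afm, Apoc4, Apoh, F13b, Orm1 and Serpina6. The 9 detected genes of the 12 that neighbour members in gene clusters had a median difference of -0.06. Only 4 of the 9 had a mean log2 signal of at least 7.5, and 2 of these were lower by 1 or more. Beside Apoe, Apoc2 and Apoc1 (-1.43) were lower while Tomm40, a mitochondrial import gene, had 0.29. Beside Apoa1, Apoc3 had -0.06 by its brighter probe and -1.24 by the other. Apoa5 had -0.06 (log2 signals of 6.64 and 6.58) and Apoa4 was detected on EpiSC only (at least 1.59-fold higher there). Beside F10, F7 had 0.01 (6.32 and 6.33). Apoa5 and F7 were dim on both arrays, so their differences say little. Tomm40, Apoc3, Apoa5, Apoa4 and F7 were named after their values were seen, as were Mttp, Gata6, Foxa2 and Cubn below.

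In lipoprotein assembly, transfer and uptake, 4 of 17 detected genes were lower by 1 or more and 1 was higher, with a median of -0.25. Soat2, which esterifies cholesterol, had -1.80, and the cholesterol exporters Abcg1 and Abca1 had -1.73 and -1.13. Pltp, the phospholipid transfer protein, was higher by 1.34. Mttp, which loads lipid onto APOB, was measured on both arrays with a difference of -0.37. Among 10 detected carriers and handlers of retinol and thyroid hormone, 2 were lower and 3 higher by 1 or more, with a median of -0.02. Stra6, the receptor for RBP4, was lower (9.23 to 7.97, -1.26). Rdh10 and Dhrs3, which oxidise retinol and reduce retinal, were higher by 1.83 and 1.61.

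Of 15 endoderm transcription factors, all detected, 5 were lower by 1 or more and 0 higher, with a median of -0.57. Hnf4a, a central regulator of apolipoprotein and clotting factor genes, had a log2 signal of 12.79 in EpiSC against 7.67 in ELA-EpiSC (-5.12). Gata4 had -2.39, Foxa3 -2.19 and Hhex -1.73. Gata6 had -0.57 and Foxa2 -0.44. Of 9 known regulators of Afp, 1 was lower by 1 or more and 0 were higher, and the median was 0.27.

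Markers of visceral endoderm and of other cell types that such cultures could hold were read beside the members. In the list of visceral endoderm uptake and surface markers, 2 of 8 were lower by 1 or more and 1 was higher, 5 were lower by any amount, and the median was -0.38. Amn, the anchor of the cubilin receptor, had 10.00 in EpiSC and 7.25 in ELA-EpiSC (-2.75), whereas Cubn itself had 0.11. Lrp2, the megalin gene, was higher by 1.51 by its brighter probe and 0.17 by the other, and Pdzk1 had -1.48 and -0.47 by its probes. The summed linear signal of the 8 genes was 18965 in EpiSC and 19367 in ELA-EpiSC. Sums over a list are led by its brightest probes, here Cited1 (13.72 to 13.25, named after its values were seen) and Lrp2, and do not describe its other genes. Of 9 anterior visceral endoderm genes 4 were lower by 1 or more (Sfrp5 -4.56, Hesx1 -4.38, Sfrp1 -2.15 and Hhex) and 0 higher. The median was -0.30, and the summed signals were 239252 and 209178. The other 5, named after their values were seen, were within 1 by their brightest probes. They were Cer1 (0.01), Lefty1 (0.49), Dkk1 (0.87), Otx2 (0.005) and Lhx1 (-0.30). The part of these visceral endoderm genes in the differences of the members was not tested. In RNA of whole cultures, fewer cells of a type and less RNA per cell cannot be told apart.

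Of 10 parietal endoderm genes 1 was lower by 1 or more (Pth1r -2.62) and 3 were higher (Pdgfra 1.77, Thbd 1.53 and Snai1 1.13), and the summed signals were 171706 and 155538. Of 9 definitive endoderm and gut genes 3 were lower (Cpm -3.57, Pyy -3.38 and Cxcr4 -1.24), with sums of 252610 and 235636. Of 10 hepatocyte genes 5 were detected, 1 of them higher by 1 or more (Arg1, 6.19 to 7.85, difference 1.66), with a median of 0.29 and sums of 4318 and 8018. Only 1 of the 5 had a mean log2 signal of at least 7.5, and it was not Arg1, so Arg1 and the median rest on dim signals. Most of both sums came from Ass1 (log2 signals of 11.92 and 12.85), a urea cycle gene named after its values were seen. Alb, Cps1, Tdo2, Pck1 and Hpd were detected on neither array. Of 8 detected trophoblast genes 3 were lower (Ascl2, 12.88 to 9.88, Gata3 -2.56 and Elf5 -1.48) and 1 higher (Tfap2c, 1.16), with sums of 16629 and 5815, while Tpbpa was not detected. The EpiSC sum was led by Ascl2 and Gata3 and does not describe the other genes. The other 4, named after their values were seen, were within 1 by their brightest probes. They were Cdx2 (0.20, dim on both arrays at 6.27 and 6.47), Hand1 (-0.56), Prl3d1 (-0.32) and Plac1 (0.07). Of 8 epiblast genes 0 were lower and 1 was higher by 1 or more by their brightest probes (Pou3f1, 1.46), with sums of 299360 and 258121. Dnmt3b, named after its values were seen, was the largest term of both sums (17.07 to 16.24). It had -0.84 by its brightest probe and -1.11 by another. The part of these cell types in the differences of the members was not tested.

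**Figure D4:**
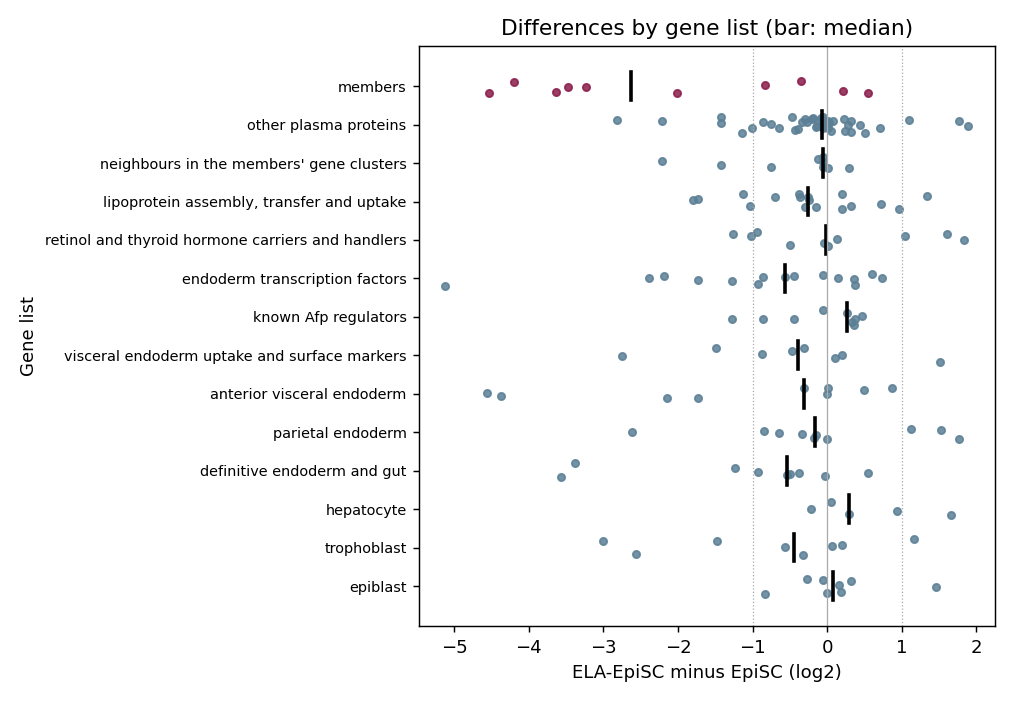
Difference ELA-EpiSC minus EpiSC (log2, horizontal axis) of every detected gene in the members' set (red) and in 13 lists (blue), 1 row each, with black bars at the medians and dotted lines at -1 and 1. The members' bar is at -2.62 and those of the lists lie between -0.57 and 0.29, but single genes of several lists reach below -2.

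The 6 members lower by 1 or more kept that direction and a difference past 1 in every way of processing that gave them a value. Their sizes did not all hold equally well. Rbp4 ranged from -3.38 to -2.69 and Spink3 from -3.88 to -3.09, whereas Ttr (-7.54 to -2.93), F10 (-7.29 to -3.66), Ambp (-6.88 to -3.99) and Apoa1 (-5.26 to -1.48), all dim on ELA-EpiSC, had wider ranges. For each of these 6 genes the lowest value came with the processed signal and the highest with spike-in scaling. Afp (-0.08 to 0.84) and Apom (-0.56 to 0.19) changed sign in 1 setting each. Apob stayed higher, from 0.35 to 1.13. The 8 spike-in probes detected on both arrays were all lower on ELA-EpiSC, by 0.54 on average after normalisation, and setting them equal moved the median of all genes to 0.53, while 75th-percentile scaling after background correction moved it to -0.18.

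**Figure D5:**
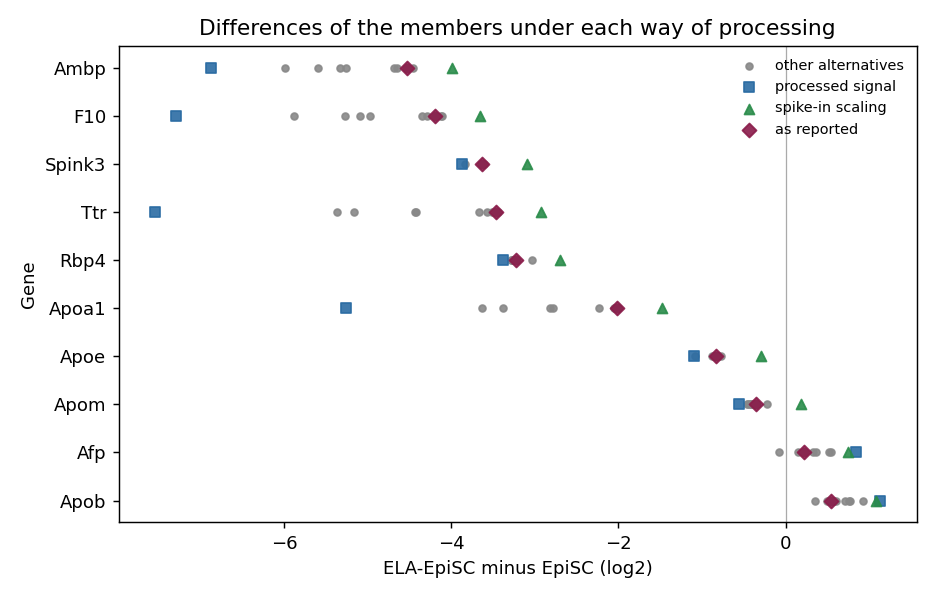
Difference ELA-EpiSC minus EpiSC (log2, horizontal axis) of each gene (vertical axis) as reported (red diamonds), with the scanner's processed signal (blue squares), with spike-in probes set equal (green triangles) and in the other ways of processing (grey). Rbp4 and Spink3 have narrow ranges, Ttr, F10, Ambp and Apoa1 wide ones that stay below -1, and Apom and Afp cross 0.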

How the data were processed

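RNA of 1 EpiSC and 1 ELA-EpiSC pool (50 ng labelled with Cy3, per the labels) was read on 1 slide in 1 scan. The deposited scanner files give linear intensity and local background of every spot, made with Feature Extraction (10.7.3.1 per the file headers, 9.1 in the submitters' processing notes). Each array had 62976 spots, of which 59305 measured 55681 probes, and 65.9% (EpiSC) and 65.0% (ELA-EpiSC) of probes were detected. With limma 3.58.1 in R 4.3.3, mean signal was corrected by normexp (offset 50), control and marked spots (158 and 117) were left out, arrays were quantile normalised, and log2 values were averaged over spots of a probe. A gene took its brightest probe detected on at least 1 array. Where only EpiSC was detected, the fold is against the higher of the dim value and the lowest detected signal (6.11). Such folds are lower limits in the reported normalisation only. All folds are of normalised signal that includes the offset, which narrows the differences of dim genes. With an offset of 0 the difference of Ambp was -5.99 (reported -4.53) and that of Afp 0.55 (reported 0.21). Over 312 probes with 10 spots, the SD of a spot's difference was 0.10, which covers spot noise only. The authors also deposited log2 values, background-corrected and quantile normalised, used as an alternative. The number of arrays limits the precision. Named genes are all members, up to 4 per list with the largest differences past 1, and undetected defining markers, with others stated, and some genes the rule selects are not reported here. The members and lists were chosen with earlier results of these data known. Background correction and normalisation were tested on simulated data with differences placed in brighter spots only. Detection and the limits for undetected signals were not part of that test. Names are those of the array, and 27793 of 28167 RefSeq probes matched the RefSeq table. Probe positions are mm9, and exon annotation was not used here.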

Additional observations from a re-analysis of the deposited data

How the results depend on the processing

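All 6 members lower by 1 or more stayed so in 13 of 14 alternatives, and the processed signal and 75th-percentile scaling added Apoe, which made 7. The exception was a filter on detection on both arrays, which left 7 members with a value and 3 of them lower, with a median of -0.83. That filter gave no value for Ttr, F10 and Apoa1. The median over the members, -2.62 as reported, was -3.46 with a normexp offset of 0, -3.04 with an offset of 16, -3.02 without background correction, -3.63 with the processed signal, -2.75 after scaling to the 75th percentile, -2.52 after scaling to the median, -2.09 with spike-in probes set equal and -3.33 in the deposited log2 values. Members higher by 1 or more numbered 0 as reported and 1 (Apob) with the processed signal and with spike-in scaling. At the minimum mean log2 of 7.5, 742 genes were lower and 756 higher by 1 or more. These counts were 321 and 2621 with spike-in scaling, 108 and 67 at a threshold of 2.5, and 481 lower at a minimum mean log2 of 9. Scaling to the median gave 516 and 1114. The causes were not tested. All 37 genes outside the members that the naming rule selected kept their direction in all 14 alternatives, and 8 came under 1 in at least 1 (among them Apoc1, Abca1, Stra6, Cxcr4 and Elf5 with spike-in scaling, Lrp2 with the mean of probes, Pdzk1 with both). Dim signals limit the folds of Ttr, F10, Ambp and Apoa1. No paired analysis was possible because there was a single array per group.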
